A study of Mus musculus with 9 samples.

Results

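The 37 genes described here serve glycolysis and the response of cells to low oxygen. They were taken by symbol from a table of 52550 genes. Of them, 24 encode carriers, enzymes and regulators of glycolysis, and 13 encode oxygen sensors and hypoxia targets. The symbol Aldoa stood on a further identifier with 0 counts, which was left out, and all 37 genes passed the filter on low counts that kept 13255 genes for testing. RNA was read in 9 libraries labelled as limb-derived chondroblasts, from micromass cultures, which are dense drops of mouse forelimb cells from embryonic day 12 in a medium that lets cartilage form. The OPH group was 3 cultures with the pan-caspase inhibitor Q-VD-OPH at 100 µM, and the FMK group was 3 cultures with the pan-caspase inhibitor Z-VAD-FMK at 100 µM. The DMSO group was 3 cultures with the vehicle alone, run in parallel, and all 9 were harvested after 6 days of treatment. Serum, β-glycerol phosphate and ascorbic acid were in the medium of every group, and the labels' protocols describe no step at low oxygen. Per the labels, the 3 cultures of a group are biological replicates, but nothing in the labels ties a library number to a litter or a preparation, so p-values measure the spread between these libraries.

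Glycolysis splits glucose into pyruvate. Carriers bring glucose in, hexokinases and phosphofructokinases spend ATP to prime it, and the later enzymes of the payoff phase return more ATP than was spent. Pyruvate then enters the mitochondria or is reduced to lactate, which monocarboxylate carriers bring out of the cell. When oxygen is scarce, the prolyl hydroxylases that mark the factor encoded by Hif1a for breakdown slow down, and that factor raises transcription of many glycolytic genes and of genes for blood vessel growth, pH control and mitochondrial removal. Cartilage has no blood vessels, so chondrocytes live at low oxygen and draw much of their ATP from glycolysis, and Hif1a is known to be needed for chondrocyte survival in the growth plate. Both inhibitors are peptide-like compounds that bind the active site of caspases. Z-VAD-FMK carries a benzyloxycarbonyl cap and a fluoromethyl ketone, while Q-VD-OPH carries a quinoline cap and a fluorinated phenoxymethyl ketone.

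The promoters of the 4 genes with the largest change with FMK against DMSO are shown because hypoxia-inducible factors are known to bind a short core with the letters ACGTG or GCGTG. Each stretch runs from 250 bases before to 50 bases after the RefSeq start of the gene on GRCm38.p6, 5′ to 3′ on the strand of the gene. Capitals mark ACGTG or GCGTG on either strand, so that CACGT and CACGC are the same letters read on the other strand. Car9 lies at chr4:43506776-43507075 on the plus strand, Eno2 at chr6:124769624-124769923 on the minus strand, Slc16a3 at chr11:120948817-120949116 on the plus strand and Slc2a1 at chr4:119108495-119108794 on the plus strand.
Car9: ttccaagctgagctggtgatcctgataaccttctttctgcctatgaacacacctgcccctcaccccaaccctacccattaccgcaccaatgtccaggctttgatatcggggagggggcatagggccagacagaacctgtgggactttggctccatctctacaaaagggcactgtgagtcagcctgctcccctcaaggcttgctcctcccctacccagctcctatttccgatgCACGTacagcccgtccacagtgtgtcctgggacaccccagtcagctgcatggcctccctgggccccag
Eno2: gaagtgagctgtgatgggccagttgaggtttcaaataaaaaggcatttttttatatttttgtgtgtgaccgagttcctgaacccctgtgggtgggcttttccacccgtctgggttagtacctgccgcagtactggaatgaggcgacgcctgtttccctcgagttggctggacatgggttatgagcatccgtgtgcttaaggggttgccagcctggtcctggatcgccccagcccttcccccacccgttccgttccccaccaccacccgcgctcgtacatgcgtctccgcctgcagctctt
Slc16a3: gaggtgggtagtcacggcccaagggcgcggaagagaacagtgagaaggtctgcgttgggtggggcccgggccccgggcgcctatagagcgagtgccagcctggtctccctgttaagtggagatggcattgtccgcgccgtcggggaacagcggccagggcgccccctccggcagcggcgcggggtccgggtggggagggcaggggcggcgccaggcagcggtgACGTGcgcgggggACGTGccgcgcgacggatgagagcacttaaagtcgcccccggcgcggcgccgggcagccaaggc
Slc2a1: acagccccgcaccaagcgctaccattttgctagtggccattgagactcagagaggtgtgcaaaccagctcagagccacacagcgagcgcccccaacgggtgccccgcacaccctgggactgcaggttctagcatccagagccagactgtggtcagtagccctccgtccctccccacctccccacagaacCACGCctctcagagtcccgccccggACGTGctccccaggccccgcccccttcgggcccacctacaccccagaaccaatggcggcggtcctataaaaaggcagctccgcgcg

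The Car9 stretch held 1 ACGTG, whose first base lay 18 bases before the start. The Slc16a3 stretch held 2 ACGTG, at 27 and 14 bases before the start. The Slc2a1 stretch held 1 GCGTG at 61 bases and 1 ACGTG at 36 bases before the start, and the Eno2 stretch held neither set of letters. RefSeq promoters of this length were matched for 34 of the 37 genes, all but Slc2a3, Bnip3l and Ndrg1. ACGTG occurred in 20 of them (58.8%), against 19.6% of all 32851 promoters, and GCGTG occurred in 19 (55.9%), against 32.4%. Either one occurred in 27 of 34 (79.4%), against 43.8% of all promoters. The E-box CACGTG, which contains ACGTG and so overlaps with it, occurred in 5 (14.7%), against 7.2%. These are matches of letters and do not show that a factor was bound. The genes were chosen in part as hypoxia targets, so these shares are not independent of that choice. For each matched gene 1 promoter was set against all promoters, whatever their expression or base content.

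Each library held between 5659789 and 6867350 counts, with 16588 to 17656 genes detected. Values are given below as CPM, the counts per 1000000 counts of the TMM-scaled library. Markers of cartilage were present in every group, with summed levels of 1464 to 2578 CPM with OPH, 1524 to 1661 CPM with FMK and 3009 to 4491 CPM with DMSO over 13 chondrocyte genes. Of these, 6 were lower with OPH and 10 with FMK, each against DMSO. The cultures also held other cells. Summed levels of 18 macrophage markers were 236 to 275 CPM with OPH, 36.8 to 52.6 CPM with FMK and 1464 to 2805 CPM with DMSO, and all 18 were lower with each inhibitor than with DMSO. Adipocyte markers summed to 805 to 3253 CPM with OPH, 116 to 210.1 CPM with FMK and 545 to 2898 CPM with DMSO, with 7 of 11 tested lower with FMK than with DMSO, and Cidec and Lep were at 0 with FMK. Skeletal muscle markers summed to 301 to 870.1 CPM with OPH, 146 to 643 CPM with FMK and 277 to 1020 CPM with DMSO. None of the 15 tested was called in any of the 3 comparisons. Ckm was at 0 with each inhibitor and at 0, 0 and 0.2907 CPM with DMSO. Interferon response genes summed to 7502 to 8055 CPM with OPH, 8318 to 10640 CPM with FMK and 207 to 380 CPM with DMSO, with 12 of 12 higher with each inhibitor. In whole cultures, fewer cells of a type and less RNA per cell cannot be told apart, and the part of these cell types in the values below was not tested.

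With FMK against DMSO, most of the 37 genes rose. In edgeR's quasi-likelihood test with Benjamini-Hochberg adjustment over the 13255 genes, 25 of the 37 (67.6%) were higher with FMK at an adjusted p under 0.05, where 10.4% of all genes tested were called higher. Only Pfkm and Ldhb, 2 of 37 (5.41%), were lower, where 10.1% of all genes tested were called lower. The other 10 did not pass the test. The median log2 fold change of the 37 was 0.59, against -0.0064 over all genes tested, with a range of -0.85 to 2.02. All 3 FMK libraries lay above all 3 DMSO libraries for 29 of the 37 and below them for 3, which was the case for 17.4% and 18.1% of all genes tested. Of the glycolysis genes, 16 of 24 rose and 2 fell, and of the oxygen sensors and hypoxia targets, 9 of 13 rose and none fell. Among the genes called higher, the rise was largest for Car9, Eno2, Slc16a3, Slc2a1, Egln3 and Pfkp, the 6 with at least a doubling. Adm had a larger change than Pfkp, at 1.20 ± 0.38, but did not pass (adjusted p = 0.0769). Summed over the 24 glycolysis genes, the level was 4434 ± 126 CPM with FMK and 3014 ± 280 CPM with DMSO (SD, n = 3 each), 1.47 times as much with FMK. For the 13 hypoxia genes the sums were 1657 ± 140 CPM with FMK and 1020 ± 76.5 CPM with DMSO, 1.62 times as much with FMK. Scaling by library size alone placed the median of all genes at -0.11 and the median of the 37 at 0.48, and it called 1012 genes higher and 1938 lower over the table, in place of 1383 and 1341.

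**Figure D1:**
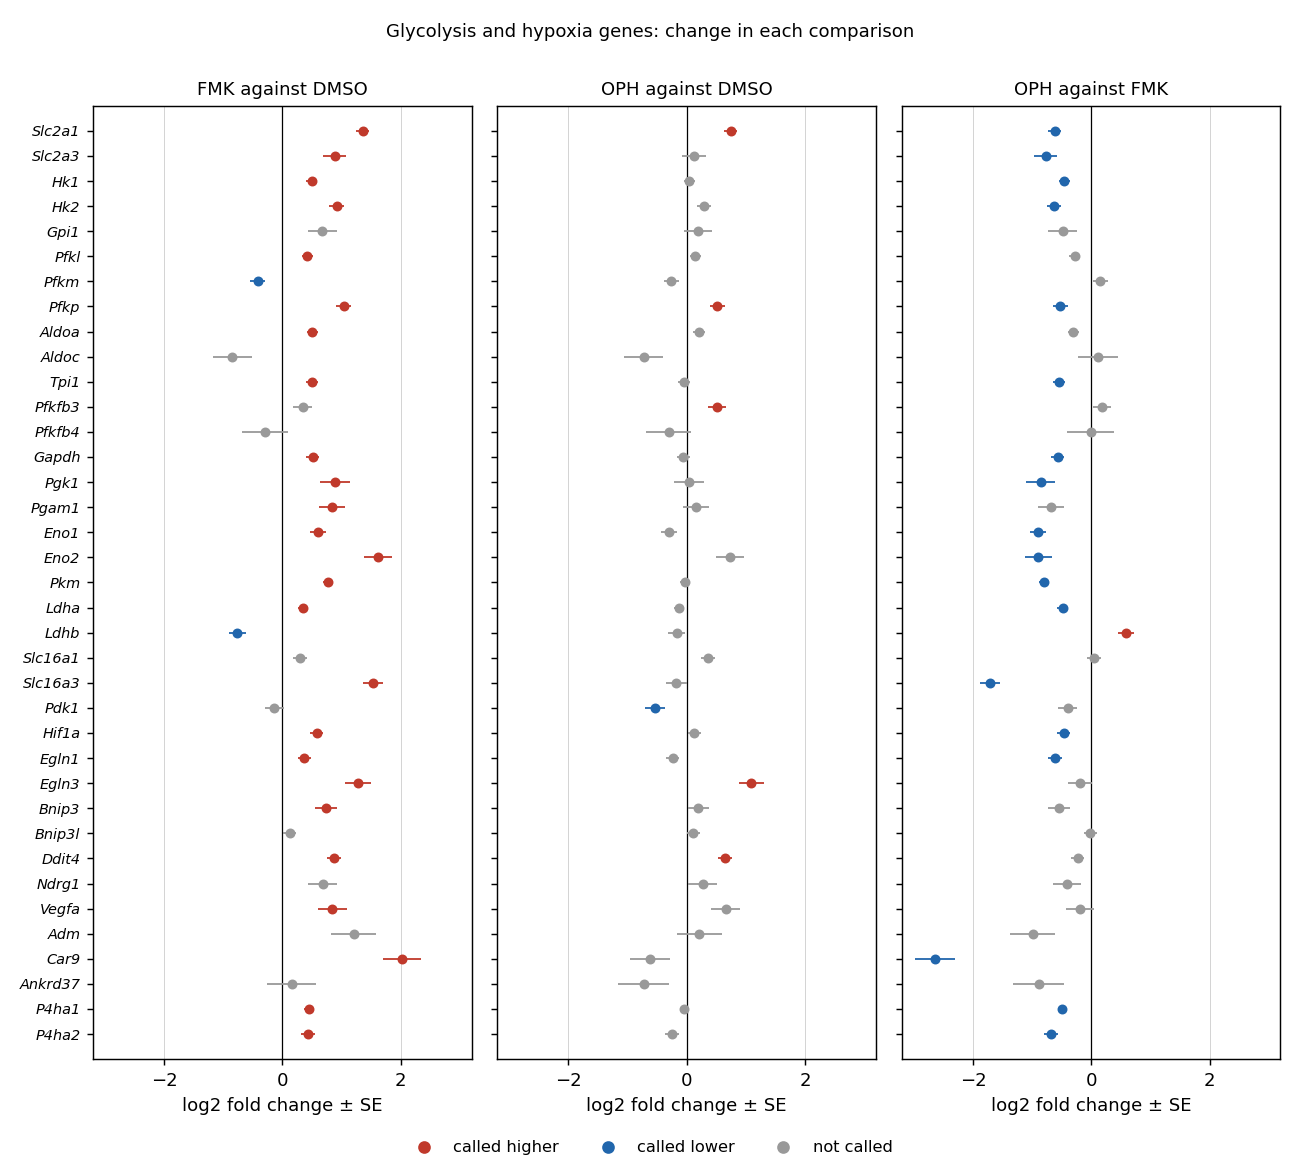
Log2 fold change ± SE of each of the 37 genes in FMK against DMSO (left), OPH against DMSO (middle) and OPH against FMK (right), with genes down the page by role and calls at an adjusted p under 0.05 in red (higher) and blue (lower). With FMK against DMSO 25 genes were called higher and 2 lower; with OPH against DMSO 5 were called higher and 1 lower; with OPH against FMK 1 was called higher and 18 lower.

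Both glucose carriers rose with FMK. Slc2a1 (chr4:119108711-119137983, plus strand), the carrier of most dividing cells, had 118, 107 and 96.0 CPM with OPH, 156, 179 and 157 CPM with FMK and 71.1, 56.5 and 64.4 CPM with DMSO. Every FMK library lay above every OPH library, and every OPH library above every DMSO library. Its log2 fold change with FMK against DMSO was 1.36 ± 0.11 (adjusted p = 5.36e-08), the smallest adjusted p of the 37. Slc2a3, a carrier with a high affinity for glucose, had 9.41, 12.4 and 12.0 CPM with OPH, 17.6, 20.2 and 19.9 CPM with FMK and 9.33, 10.8 and 11.0 CPM with DMSO. The FMK libraries stood above the rest, while OPH and DMSO overlapped. Slc2a3 rose with FMK by 0.88 ± 0.20 on the log2 scale (adjusted p = 0.0037).

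Among the enzymes that phosphorylate and split hexoses, 6 of 9 rose with FMK and 1 fell. Hk1, a hexokinase found in most tissues, had 72.3, 77.6 and 74.4 CPM with OPH, 100.5, 104 and 103 CPM with FMK and 75.8, 67.9 and 74.0 CPM with DMSO. Hk2, the hexokinase of fast-growing and insulin-responsive tissues, had 50.3, 50.2 and 44.0 CPM with OPH, 69.4, 73.8 and 80.2 CPM with FMK and 36.2, 36.3 and 45.6 CPM with DMSO. In both genes the 3 FMK libraries were the highest of the 9, and OPH overlapped with DMSO. The log2 fold change with FMK was 0.50 ± 0.09 for Hk1 (adjusted p = 0.000776) and 0.92 ± 0.12 for Hk2 (adjusted p = 2.83e-05). Gpi1, which turns glucose phosphate into fructose phosphate, ranged over 103 to 157 CPM with OPH, 153 to 206 CPM with FMK and 82.8 to 147 CPM with DMSO. The FMK libraries lay above those with DMSO, but the change of 0.67 ± 0.24 did not pass (adjusted p = 0.099). It passed in limma-voom (adjusted p = 0.0225), in DESeq2 (0.00303), with the replicate number as a block in the fit (0.69, adjusted p = 1e-06) and without DMSO library 3 (adjusted p = 0.0338). About 22.8% of the 50-base windows at its transcript ends also occur in another gene, so its counts are uncertain.

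Phosphofructokinase commits sugar to glycolysis, and its 3 subunit genes differed in direction. Pfkl, the liver-type subunit, had 115, 119 and 99.4 CPM with OPH, 138, 139 and 128 CPM with FMK and 104, 99.8 and 98.5 CPM with DMSO. Pfkp, the platelet-type subunit, had 72.7, 69.1 and 51.7 CPM with OPH, 94.3, 95.3 and 88.3 CPM with FMK and 44.2, 41.9 and 49.1 CPM with DMSO. Pfkm, the muscle-type subunit, had 31.4, 31.9 and 35.9 CPM with OPH, 28.1, 30.7 and 30.2 CPM with FMK and 41.1, 37.6 and 40.3 CPM with DMSO. For Pfkl and Pfkp the FMK libraries were the highest of the 9, whereas for Pfkm they were the lowest, with OPH between FMK and DMSO and no overlap. With FMK the log2 fold change was 0.42 ± 0.09 for Pfkl (adjusted p = 0.00276) and 1.04 ± 0.13 for Pfkp (adjusted p = 8e-06). Pfkm fell, with -0.42 ± 0.13 (adjusted p = 0.0265). That call was lost without DMSO library 1 or 3 (adjusted p = 0.0883 and 0.067), without FMK library 1 or 2 (0.0898 and 0.0562), without the low-count filter (0.0523) and with libraries 1 and 2 alone (0.0779).

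The next steps split fructose bisphosphate and interconvert the products. Aldoa, the main aldolase of most tissues, had 824, 919 and 697 CPM with OPH, 962, 1036 and 1009 CPM with FMK and 746, 619.9 and 747 CPM with DMSO. Aldoc, the brain-type aldolase, had 12.1, 14.2 and 5.06 CPM with OPH, 9.96, 11.6 and 7.36 CPM with FMK and 21.9, 12.3 and 18.2 CPM with DMSO. Tpi1, triosephosphate isomerase, had 221, 201 and 171 CPM with OPH, 305, 293 and 267 CPM with FMK and 218, 183 and 209.9 CPM with DMSO. The FMK libraries were the highest of the 9 for Aldoa and Tpi1 and lay below the DMSO libraries for Aldoc, while OPH overlapped with DMSO in all 3 genes. Aldoa rose with FMK by 0.51 ± 0.10 (adjusted p = 0.00116) and Tpi1 by 0.50 ± 0.10 (adjusted p = 0.00145) on the log2 scale. Aldoc had -0.85 ± 0.33 and did not pass (adjusted p = 0.0911), but passed with the replicate number as a block (-0.88, adjusted p = 0.0204) and without OPH library 3 (adjusted p = 0.0229), without the low-count filter (0.00654) and in a fit of the 2 groups alone (0.0325). Other genes share 17.9% of the windows at the transcript ends of Aldoa and 18.1% of those of Tpi1, so these counts are uncertain.

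Neither regulator of phosphofructokinase passed the test with FMK. Pfkfb3, which makes the fructose bisphosphate that activates the enzyme, had 57.0, 78.1 and 52.1 CPM with OPH, 52.4, 60.3 and 53.0 CPM with FMK and 49.6, 45.3 and 36.0 CPM with DMSO. Pfkfb4, a testis-type relative also induced by hypoxia, had 3.71, 4.69 and 3.64 CPM with OPH, 6.21, 2.79 and 3.13 CPM with FMK and 5.45, 4.84 and 4.65 CPM with DMSO. For Pfkfb3 the lowest FMK library lay just above the highest DMSO library, and for Pfkfb4 all groups overlapped. The log2 fold change of Pfkfb3 with FMK was 0.34 ± 0.16 (adjusted p = 0.143), which passed with the replicate number as a block (0.34, adjusted p = 0.0377). That of Pfkfb4 was -0.30 ± 0.39 (adjusted p = 0.66).

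All 6 payoff-phase genes rose with FMK. Gapdh, which oxidises glyceraldehyde phosphate, had 113, 119.6 and 103 CPM with OPH, 175, 174 and 149 CPM with FMK and 116, 99.8 and 133 CPM with DMSO. Pgk1, the first kinase that returns ATP, had 8.56, 9.24 and 6.65 CPM with OPH, 17.0, 16.0 and 11.2 CPM with FMK and 7.16, 7.10 and 9.59 CPM with DMSO. Pgam1, a phosphoglycerate mutase, had 10.6, 11.2 and 11.4 CPM with OPH, 12.9, 18.4 and 21.9 CPM with FMK and 9.80, 10.5 and 9.45 CPM with DMSO. In these genes each FMK library was above each DMSO library, and the FMK libraries spread widely for Pgk1, where library 3 was low, and for Pgam1, where library 1 was low. The log2 fold change was 0.51 ± 0.11 for Gapdh (adjusted p = 0.00226), 0.89 ± 0.25 for Pgk1 (adjusted p = 0.0168) and 0.84 ± 0.22 for Pgam1 (adjusted p = 0.0112). The call of Pgk1 was lost without DMSO library 1 or 2 (adjusted p = 0.0633 and 0.0673) or FMK library 1 or 2 (0.0771 and 0.0657), and that of Pgam1 without FMK library 3 (0.0619) and with libraries 1 and 2 alone (0.123). Sequence shared with 172 other genes covers 78.3% of the windows at the transcript ends of Gapdh, so its counts are uncertain.

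The last steps give pyruvate. Eno1, the enolase of most tissues, had 36.1, 32.1 and 34.3 CPM with OPH, 70.4, 62.5 and 58.3 CPM with FMK and 38.4, 38.2 and 49.3 CPM with DMSO. Eno2 (chr6:124760053-124769673, minus strand), the enolase best known from neurons, had 28.4, 22.8 and 18.7 CPM with OPH, 55.4, 44.3 and 29.8 CPM with FMK and 17.4, 11.3 and 13.5 CPM with DMSO. Pkm, the pyruvate kinase of muscle and growing tissues, had 526, 519.8 and 483 CPM with OPH, 853, 906 and 895 CPM with FMK and 523, 455 and 581 CPM with DMSO. All FMK libraries stood above the other 6 libraries in all 3 genes, and within the FMK group Eno2 was lowest in library 3. The OPH libraries lay above DMSO for Eno2, below DMSO for Eno1 and overlapped with DMSO for Pkm. With FMK the log2 fold change was 0.60 ± 0.13 for Eno1 (adjusted p = 0.00274), 1.62 ± 0.24 for Eno2 (adjusted p = 0.000199) and 0.77 ± 0.08 for Pkm (adjusted p = 2.64e-06). Eno1 shares 86.9% and Pkm 20.7% of the windows at their transcript ends with other genes, and their counts are uncertain, whereas Eno2 shares 0%.

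Genes for the fate of pyruvate and lactate went both ways. Ldha, the lactate dehydrogenase subunit that favours lactate, had 627, 626 and 528 CPM with OPH, 853, 845 and 792 CPM with FMK and 684, 570.2 and 703 CPM with DMSO. Ldhb, the subunit best known from oxidative tissues, had 52.3, 53.0 and 37.2 CPM with OPH, 32.8, 33.0 and 28.9 CPM with FMK and 55.2, 55.0 and 50.7 CPM with DMSO. The FMK libraries were the highest of the 9 for Ldha and the lowest for Ldhb, and OPH overlapped with DMSO in both. Ldha rose with FMK by 0.35 ± 0.09 on the log2 scale (adjusted p = 0.00939), while Ldhb had -0.76 ± 0.14 (adjusted p = 0.000771). The call of Ldha was lost without DMSO library 2 (adjusted p = 0.0616) and with scaling by library size alone (0.0527). Other genes share 20.5% of the end windows of Ldha and 12.7% of those of Ldhb.

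Of the lactate carriers, Slc16a3 rose with FMK. Slc16a3 (chr11:120948480-120960868, plus strand), a monocarboxylate carrier known for lactate export, had 41.6, 37.4 and 31.5 CPM with OPH, 121, 124 and 118 CPM with FMK and 40.4, 30.2 and 54.4 CPM with DMSO. Slc16a1, a carrier that moves lactate in or out, had 57.2, 50.5 and 51.3 CPM with OPH, 49.7, 57.4 and 46.3 CPM with FMK and 40.6, 39.8 and 44.0 CPM with DMSO. For Slc16a3 the 3 FMK libraries were close together and each was more than double any other library, and for Slc16a1 both inhibitors lay above DMSO by a small step. With FMK the log2 fold change was 1.54 ± 0.17 for Slc16a3 (adjusted p = 1.72e-05), 2.90-fold, and 0.30 ± 0.12 for Slc16a1 (adjusted p = 0.09), which did not pass. Pdk1, a kinase that keeps pyruvate out of the mitochondrial cycle, had 36.5, 43.1 and 31.6 CPM with OPH, 55.4, 56.3 and 34.9 CPM with FMK and 58.0, 52.9 and 50.4 CPM with DMSO. FMK and DMSO overlapped for Pdk1, with FMK library 3 low, and the log2 fold change was -0.13 ± 0.17 (adjusted p = 0.639).

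**Figure D2:**
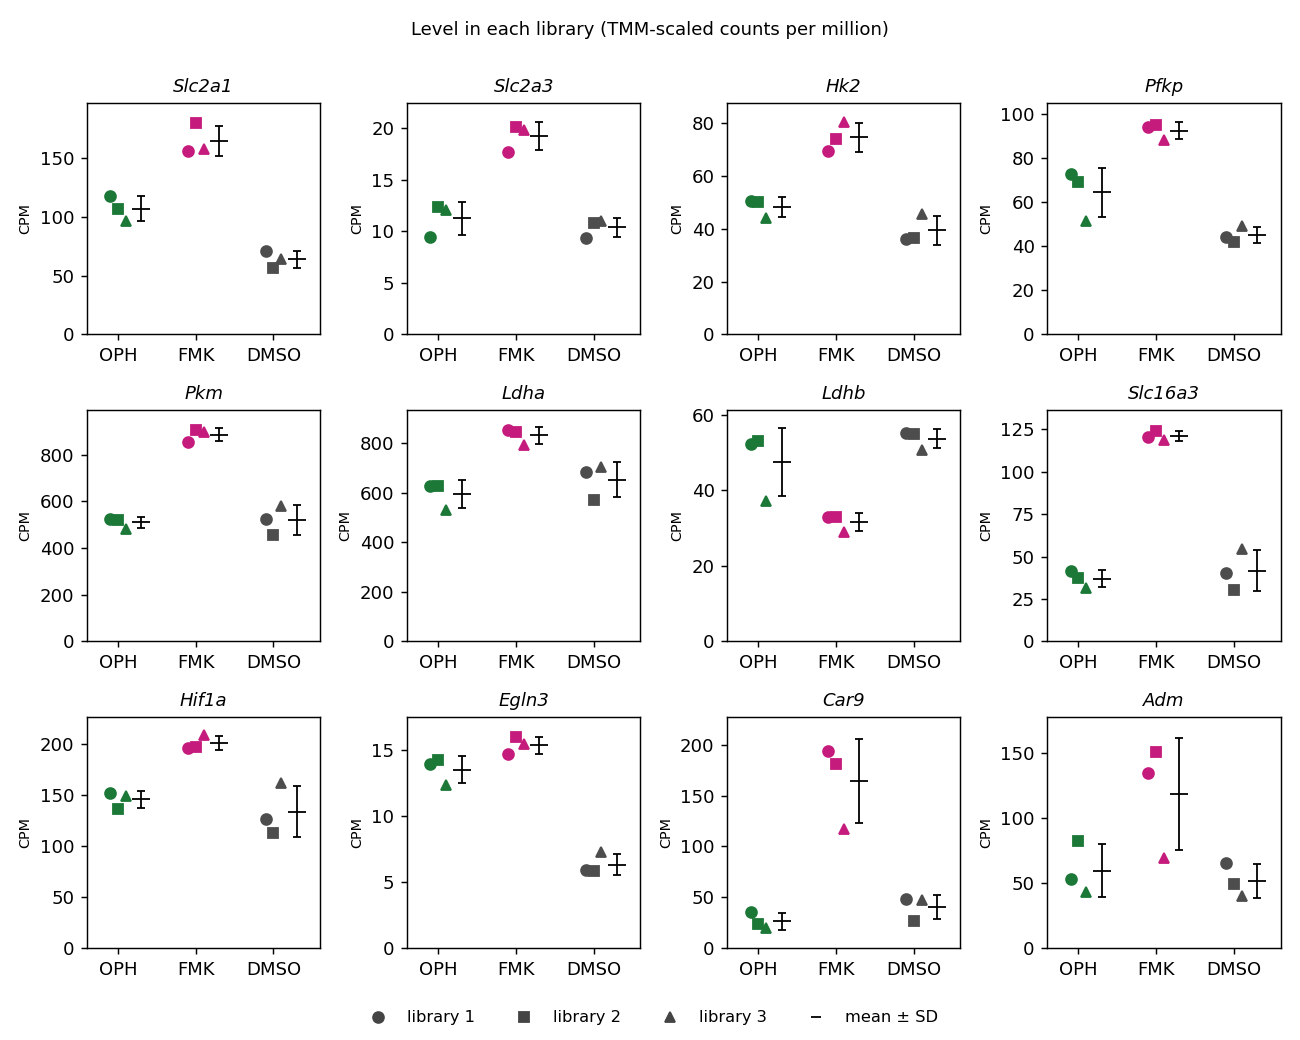
CPM in each library for 12 of the genes, with OPH, FMK and DMSO from left to right, libraries 1, 2 and 3 as circle, square and triangle, and mean ± SD beside each group. Slc16a3 lay at 118 to 124 CPM with FMK, while Ldhb was lowest with FMK, at 28.9 to 33.0 CPM.

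Of the oxygen-sensing genes, all 3 rose with FMK. Hif1a (chr12:73901375-73947530, plus strand), the oxygen-regulated factor itself, is controlled mainly through the stability of its protein, which was not measured. Its RNA had 152, 137 and 149 CPM with OPH, 196, 197 and 209 CPM with FMK and 127, 113 and 162 CPM with DMSO. Each FMK library was above all others, and OPH overlapped with DMSO, whose library 3 was high. The log2 fold change was 0.58 ± 0.11 (adjusted p = 0.000845). Egln3 (chr12:54178981-54203860, minus strand), a prolyl hydroxylase that hypoxia is known to induce, had 14.0, 14.2 and 12.3 CPM with OPH, 14.7, 16.0 and 15.4 CPM with FMK and 5.91, 5.81 and 7.27 CPM with DMSO. All 6 inhibitor libraries lay above the 3 DMSO libraries, and Egln3 rose with FMK by 1.28 ± 0.21 (adjusted p = 0.000307). Egln1, the main oxygen sensor among these hydroxylases, had 66.9, 65.8 and 66.5 CPM with OPH, 88.5, 108 and 107 CPM with FMK and 88.7, 67.6 and 79.1 CPM with DMSO. FMK library 1 and DMSO library 1 were level, so the groups overlapped, and the change was 0.37 ± 0.11 (adjusted p = 0.0266). That call was lost without DMSO library 2 (adjusted p = 0.139), without FMK library 2 or 3 (0.108 and 0.0802), with libraries 1 and 2 alone (0.106) and with library size alone (0.1).

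Among the mitophagy and stress genes, Bnip3 and Ddit4 rose with FMK. Bnip3, a mitochondrial protein that targets mitochondria for removal, had 101, 118 and 75.8 CPM with OPH, 138, 159.5 and 133 CPM with FMK and 108, 77.3 and 72.4 CPM with DMSO. The FMK libraries were the highest of the 9 and OPH overlapped with DMSO. Its log2 fold change was 0.74 ± 0.18 (adjusted p = 0.0173), lost without DMSO library 2 or 3 (adjusted p = 0.0665 and 0.051) or FMK library 2 (0.0568), and other genes share 17.7% of its end windows. Ddit4, an inhibitor of mTOR signalling induced by several stresses, had 181, 163 and 131 CPM with OPH, 191, 194 and 172 CPM with FMK and 115, 96.0 and 92.9 CPM with DMSO. Both inhibitor groups lay above DMSO, and FMK raised Ddit4 by 0.88 ± 0.12 (adjusted p = 3.24e-05). Bnip3l, a relative of Bnip3, ranged over 71.5 to 85.7 CPM with OPH, 71.2 to 83.0 CPM with FMK and 66.5 to 77.8 CPM with DMSO, with all groups overlapping and a log2 fold change of 0.12 ± 0.11 with FMK (adjusted p = 0.477). Ndrg1, a stress-induced gene of differentiating cells, ranged over 43.4 to 70.0 CPM with OPH, 55.0 to 101 CPM with FMK and 43.5 to 54.8 CPM with DMSO. Its change with FMK of 0.68 ± 0.24 did not pass (adjusted p = 0.0863), but passed with the replicate number as a block (0.65, adjusted p = 4.33e-05), without FMK library 3 (adjusted p = 0.00439) and without OPH library 3 (0.0258). Ndrg1 also passed in DESeq2 (adjusted p = 0.00948), without the low-count filter (8.68e-06), with libraries 1 and 2 alone (0.000186) and in a fit of the 2 groups alone (0.0438).

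Car9 (chr4:43506966-43513729, plus strand), a surface carbonic anhydrase that buffers pH and is widely used as a mark of hypoxia, changed most. It had 35.1, 24.0 and 19.5 CPM with OPH, 194, 181 and 117 CPM with FMK and 47.9, 26.6 and 46.9 CPM with DMSO. The FMK libraries were far above the others, library 3 being the lowest of them, and OPH overlapped with DMSO. Its log2 fold change with FMK was 2.02 ± 0.32 (adjusted p = 0.00497), a fold of 4.05. Vegfa, the main growth factor for blood vessels, had 118, 82.8 and 71.7 CPM with OPH, 102, 123 and 85.7 CPM with FMK and 73.3, 54.5 and 45.6 CPM with DMSO. FMK lay above DMSO, and the log2 fold change was 0.85 ± 0.25 (adjusted p = 0.0454). This call was lost without DMSO library 2 or 3 (adjusted p = 0.135 and 0.11), FMK library 1 or 2 (0.101 and 0.116) or OPH library 2 (0.0622), and with library size alone (0.0638). Adm, which encodes the vessel-widening peptide adrenomedullin, ranged over 43.2 to 81.9 CPM with OPH, 69.2 to 151 CPM with FMK and 40.0 to 65.3 CPM with DMSO. FMK library 3 was far below the other FMK libraries, and the change of 1.20 ± 0.38 did not pass (adjusted p = 0.0769). It passed in limma-voom (adjusted p = 0.0129), in DESeq2 (0.013), with libraries 1 and 2 alone (0.0039), with the replicate number as a block (1.15, adjusted p = 0.000517) and without FMK library 3 (adjusted p = 0.0197). Ankrd37, an ankyrin repeat gene, ranged over 1.27 to 4.85 CPM with OPH, 5.39 to 6.67 CPM with FMK and 3.63 to 7.31 CPM with DMSO and did not pass (0.16 ± 0.42, adjusted p = 0.844).

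Of the subunits of the collagen prolyl hydroxylase, an oxygen-using enzyme that stabilises the collagen triple helix, P4ha1 and P4ha2 rose with FMK. P4ha2 had 59.0, 57.3 and 63.6 CPM with OPH, 103, 91.3 and 93.8 CPM with FMK and 75.3, 57.6 and 81.1 CPM with DMSO. P4ha1 ranged over 242 to 282 CPM with OPH, 358 to 373 CPM with FMK and 255 to 278 CPM with DMSO. The FMK libraries were the highest of the 9 in both genes. The log2 fold change was 0.45 ± 0.08 for P4ha1 (adjusted p = 0.000484) and 0.43 ± 0.12 for P4ha2 (adjusted p = 0.0155). The call of P4ha2 was lost without DMSO library 2 (adjusted p = 0.0902) or FMK library 1 (0.0682) and with library size alone (0.0556). P4hb, which encodes the shared subunit of this enzyme, did not rise with FMK. Its level was 912 ± 71 CPM with FMK and 1053 ± 63 CPM with DMSO. The log2 fold change of P4hb was -0.21 ± 0.08 and did not pass (adjusted p = 0.075).

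With OPH against DMSO, 6 of the 37 genes (16.2%) were called in either direction, a share near the 16.7% of all genes tested. Slc2a1, Pfkp, Pfkfb3, Egln3 and Ddit4 rose, 5 of 37 (13.5%), where 8.61% of all genes tested were called higher. Pdk1 alone fell, 1 of 37 (2.70%), where 8.11% of all genes tested were called lower, and 31 did not pass. The median log2 fold change of the 37 was 0.11, against -0.00245 over all genes tested. The OPH libraries lay wholly above DMSO for 8 of the 37 and wholly below for 4, against 16.6% and 17.1% of all genes tested. With the replicate number as a block, 8 of the 37 were called higher, where 11.6% of all genes tested were, and 2 lower, where 11.3% were. Summed over the 24 glycolysis genes, the level was 3136 ± 288 CPM with OPH and 3014 ± 280 CPM with DMSO, 1.04 times as much with OPH, and over the 13 hypoxia genes 1119 ± 80.5 CPM with OPH and 1020 ± 76.5 CPM with DMSO, 1.1 times as much with OPH. Both inhibitors were compared with the same 3 DMSO libraries, so their changes are not independent of each other.

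Egln3 had the largest change with OPH, 1.09 ± 0.21 on the log2 scale (adjusted p = 0.00175), a fold of 2.13, beside 1.28 ± 0.21 with FMK. For Slc2a1 the change with OPH was 0.74 ± 0.11 (adjusted p = 0.000112), beside 1.36 ± 0.11 with FMK. Ddit4 rose by 0.65 ± 0.12 with OPH (adjusted p = 0.000901), beside 0.88 ± 0.12 with FMK. In these 3 genes every OPH library lay above every DMSO library, and the calls held without any 1 library. Pfkp rose with OPH by 0.52 ± 0.13 (adjusted p = 0.0081), and its OPH library 3 lay close to DMSO library 3. Without OPH library 1 the adjusted p of Pfkp was 0.0525. Pfkfb3 rose with OPH by 0.52 ± 0.15 (adjusted p = 0.0294) and was highest in OPH library 2. Without that library its adjusted p was 0.189, and without DMSO library 2 or 3 it was 0.0648 and 0.114. In a fit of the 2 groups alone it was 0.0529. Pdk1 had -0.53 ± 0.17 with OPH (adjusted p = 0.0373), with every OPH library below every DMSO library. This call was lost without DMSO library 1, 2 or 3 (adjusted p = 0.126, 0.0827 and 0.0545), without OPH library 1 or 3 (0.11 and 0.144) and in limma-voom (0.0501).

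Some genes lay near the threshold with OPH against DMSO. Eno2 had 0.73 ± 0.24 on the log2 scale (adjusted p = 0.0536), with the OPH libraries above DMSO. It passed with the replicate number as a block (0.71, adjusted p = 0.00177), in DESeq2 (adjusted p = 0.0287) and without DMSO library 1 (0.037), OPH library 3 (0.038) or FMK library 1 or 3 (0.0292 and 0.0154). Eno2 also passed with library size alone (adjusted p = 0.046), without the filter (0.00058), with libraries 1 and 2 alone (0.016) and in a fit of the 2 groups alone (0.0284). Slc16a1 had 0.35 ± 0.12 (adjusted p = 0.0533) and passed with the block (0.35, adjusted p = 0.0332) and without FMK library 2 or 3 (adjusted p = 0.049 and 0.0422), with library size alone (0.0468) and in a fit of the 2 groups alone (0.0471). Vegfa had 0.66 ± 0.24 (adjusted p = 0.12), with OPH library 3 inside the DMSO range, and it passed with the block (0.65, adjusted p = 0.000234) and without DMSO library 1 (adjusted p = 0.0427), as well as in limma-voom (0.0451), in DESeq2 (0.0116) and without the filter (0.000738). Aldoc had -0.73 ± 0.33 (adjusted p = 0.157) and passed with the block (-0.79, adjusted p = 0.0394) and without the filter (adjusted p = 0.03). Hk2 had 0.29 ± 0.12 (adjusted p = 0.129) and passed without DMSO library 3 (adjusted p = 0.0438) and with libraries 1 and 2 alone (0.0258). Aldoa had 0.21 ± 0.10 (adjusted p = 0.167) and passed without OPH library 3 (adjusted p = 0.041), without the filter (0.0418) and with libraries 1 and 2 alone (0.0156). P4ha2 had -0.25 ± 0.12 (adjusted p = 0.178) and was called lower without DMSO library 2 (adjusted p = 0.0322). None of the 6 payoff-phase genes passed with OPH, and their median log2 fold change was 0.00367, beside 0.80 with FMK. Car9 had -0.63 ± 0.34 with OPH (adjusted p = 0.291), an interval of -1.43 to 0.18, and Slc16a3 had -0.18 ± 0.17 (adjusted p = 0.568), an interval of -0.55 to 0.20 at 95%.

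The inhibitors were given at the same dose and for the same time, so OPH could be set against FMK directly. This is 1 pair of compounds, tested in each of the 37 genes with p-values adjusted over all 13255. Against FMK, 18 of the 37 genes (48.6%) were lower with OPH, where 4.66% of all genes tested were called lower. Ldhb was the 1 gene called higher with OPH (2.70%), where 4.20% of all genes tested were called higher, and 18 did not pass. The median log2 fold change of the 37 was -0.49, against 0.00836 over all genes tested. The OPH libraries lay wholly below FMK for 24 of the 37 and wholly above for 2, against 13.2% and 13.9% of all genes tested. Of the glycolysis genes 13 of 24 were lower and 1 higher, and of the hypoxia genes 5 of 13 were lower. With the replicate number as a block, 26 were lower, where 8.36% of all genes tested were, and 1 higher, where 7.78% were. Summed levels were 3136 ± 288 CPM with OPH and 4434 ± 126 CPM with FMK for glycolysis, a ratio of 0.707, and 1119 ± 80.5 CPM with OPH and 1657 ± 140 CPM with FMK for the hypoxia genes, a ratio of 0.675. Scaling by library size alone placed the median of all genes at 0.12 and that of the 37 at -0.38, and called 1103 genes of the table higher and 385 lower, in place of 557 and 618. Macrophage markers moved as well, 14 of 18 being higher with OPH than with FMK, with sums of 236 to 275 CPM with OPH and 36.8 to 52.6 CPM with FMK. Adipocyte markers summed to 805 to 3253 CPM with OPH and 116 to 210.1 CPM with FMK, with 2 of the 11 tested called higher, and the part of both cell types in these differences was not tested.

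The largest difference between the inhibitors was in Car9, at -2.65 ± 0.34 on the log2 scale (adjusted p = 0.00488), so that the level with OPH was 0.160 of that with FMK. The libraries given above for Car9 do not overlap, the highest OPH library being at 35.1 CPM and the lowest FMK library at 117 CPM. Slc16a3 differed by -1.71 ± 0.17 (adjusted p = 5.09e-05) and Pkm by -0.80 ± 0.08 (adjusted p = 2.17e-05). Eno1 differed by -0.90 ± 0.13 (adjusted p = 0.000384) and Slc2a1 by -0.62 ± 0.11 (adjusted p = 0.00145). Among the oxygen sensors, Egln1 differed by -0.61 ± 0.11 (adjusted p = 0.00259) and Hif1a by -0.46 ± 0.11 (adjusted p = 0.013); the call of Hif1a was lost without OPH library 2 (adjusted p = 0.0799). The collagen hydroxylase subunits differed by -0.49 ± 0.08 for P4ha1 (adjusted p = 0.000917) and -0.68 ± 0.12 for P4ha2 (adjusted p = 0.00178). Ldha, Tpi1, Gapdh, Hk1 and Hk2 had log2 differences of -0.63 to -0.45, and each of these calls held without any 1 library. Ldhb was higher with OPH, at 0.59 ± 0.14 (adjusted p = 0.0145), a call lost without OPH library 1 or 2 (adjusted p = 0.0687 and 0.0853).

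Other calls between the inhibitors were lost when 1 library was left out. Slc2a3 had -0.77 ± 0.20 (adjusted p = 0.0208), and without FMK library 2 or 3 or OPH library 1 the adjusted p was 0.0728, 0.0514 and 0.0898, and with libraries 1 and 2 alone it was 0.057. Pfkp had -0.52 ± 0.12 (adjusted p = 0.0128), with 0.0515 without FMK library 2 and 0.0621 without OPH library 3. Eno2 had -0.89 ± 0.23 (adjusted p = 0.0249), with 0.0993 and 0.0814 without FMK library 1 or 2 and 0.106 and 0.0846 without OPH library 2 or 3. Pgk1 had -0.85 ± 0.25 (adjusted p = 0.0398), with 0.153 and 0.127 without FMK library 1 or 2, 0.0868, 0.0795 and 0.133 without OPH library 1, 2 or 3, and 0.0622 with library size alone.

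For some genes the inhibitors did not differ beyond the test, and the 95% interval of the log2 difference gives the sizes that the data allow, since a missed threshold does not show that they act alike. That interval was -0.61 to 0.24 for Egln3 and -0.47 to 0.01 for Ddit4, the genes called higher with each inhibitor and not called between them. It was -0.15 to 0.50 for Pfkfb3 and -0.20 to 0.30 for Slc16a1. For Bnip3l it was -0.24 to 0.21, for Vegfa -0.74 to 0.37 and for Pfkm -0.11 to 0.43. For Aldoc it was -0.61 to 0.85, for Pfkfb4 -0.83 to 0.81 and for Ankrd37 -1.79 to 0.02. The other 8 genes not called passed with the replicate number as a block. The blocked log2 difference was largest in size for Adm (-0.97, adjusted p = 0.00306) and Pgam1 (-0.66, adjusted p = 0.0305). For Bnip3 it was -0.56, adjusted p = 0.00264, and for Gpi1 -0.49, adjusted p = 0.000371. For Ndrg1 the blocked value was -0.40, adjusted p = 0.0107, for Pdk1 -0.39, adjusted p = 0.0364, for Aldoa -0.30, adjusted p = 0.0346 and for Pfkl -0.28, adjusted p = 0.0208. Without the block, adjusted p-values of these 8 were 0.061 to 0.364, and 4 passed when 1 library was left out. These were Aldoa without DMSO library 2 (adjusted p = 0.046) or OPH library 2 (0.0348), Pgam1 without FMK library 1 (0.0297), Pdk1 without FMK library 3 (0.0162) and Bnip3 without DMSO library 1 (0.0244). Bnip3 also passed in DESeq2 (adjusted p = 0.0203), without the filter (2.24e-05) and in a fit of the 2 groups alone (0.0392). With libraries 1 and 2 alone, Pdk1 (0.0372), Ndrg1 (0.0384) and Adm (0.0191) passed, and without the filter Aldoa (0.00391) and Ndrg1 (0.0312).

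Set side by side, the calls of the main fit in the 3 comparisons divide the genes. Slc2a1 and Pfkp were higher with both inhibitors than with DMSO and lower with OPH than with FMK. A group of 16 genes was higher with FMK than with DMSO, lower with OPH than with FMK and not called with OPH against DMSO. These are Slc2a3, Hk1, Hk2, Tpi1, Gapdh, Pgk1, Eno1, Eno2, Pkm, Ldha, Slc16a3, Hif1a, Egln1, Car9, P4ha1 and P4ha2. Egln3 and Ddit4 were higher with both inhibitors and not called between them. Pfkl, Aldoa, Pgam1, Bnip3 and Vegfa were called higher with FMK against DMSO and in no other comparison. Ldhb was lower with FMK than with DMSO, higher with OPH than with FMK and not called with OPH against DMSO. Pfkm was called lower with FMK against DMSO and in no other comparison. Pfkfb3 was called higher and Pdk1 lower with OPH against DMSO, and both in no other comparison. Gpi1, Aldoc, Pfkfb4, Slc16a1, Bnip3l, Ndrg1, Adm and Ankrd37, 8 genes, were called in none of the 3. This division depends on the fit. The replicate block added Gpi1, Aldoc, Ndrg1, Adm and Pfkfb3 to the calls with FMK against DMSO. It added Eno2, Aldoc, Vegfa and Slc16a1 with OPH against DMSO. Between the inhibitors it added Gpi1, Ndrg1, Adm, Pfkl, Aldoa, Pgam1, Bnip3 and Pdk1.

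**Figure D3:**
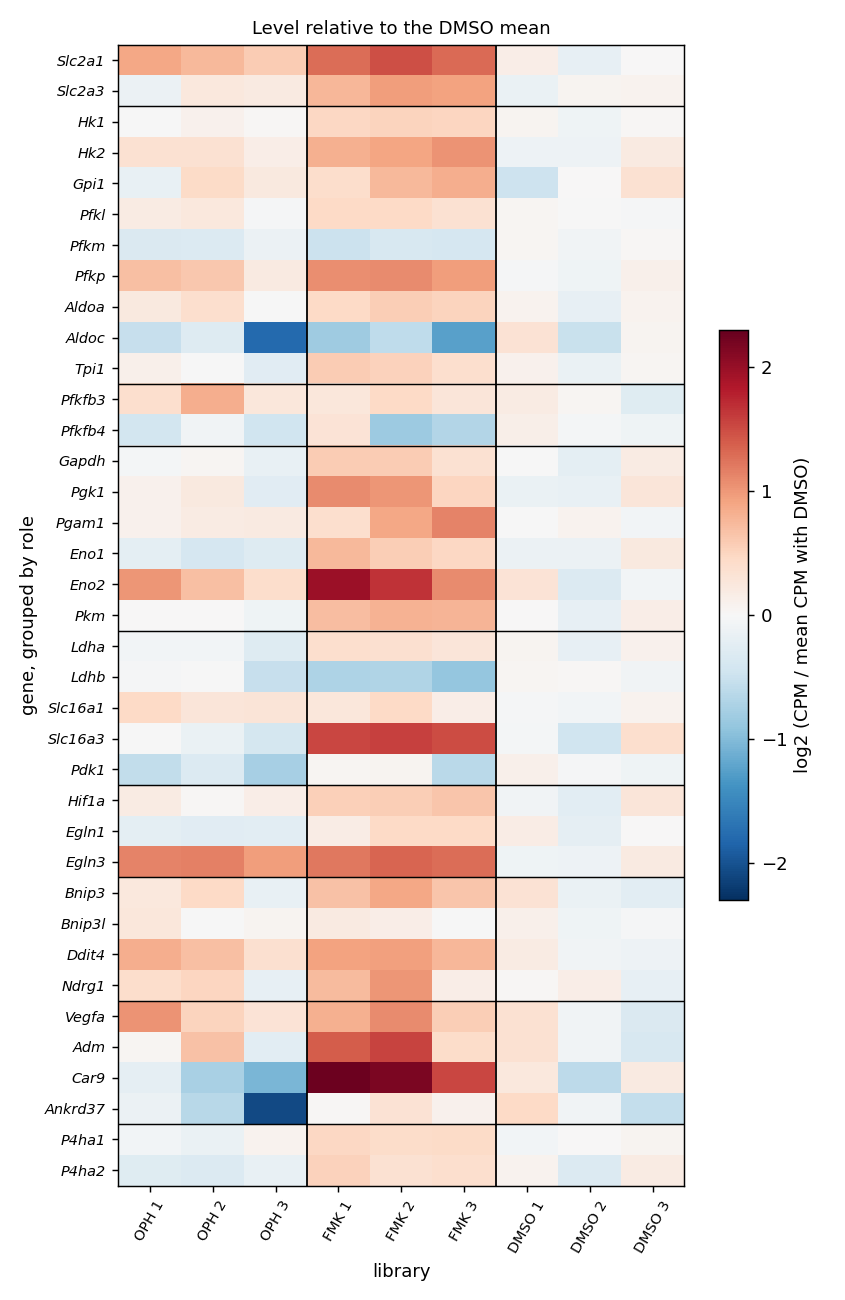
Level of each of the 37 genes in each of the 9 libraries as log2 of CPM over the mean CPM with DMSO, libraries across the page as OPH, FMK and DMSO and genes down the page by role. Red is above the DMSO mean and blue below it; the FMK columns are red for most genes, and the deepest red is Car9 with FMK.

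Within a group, 1 library was often the lowest for these genes. Among the OPH libraries, library 3 was the lowest for 25 of the 37 genes, against 33.6% of all genes tested. Among the FMK libraries, library 3 was the lowest for 20 of 37, against 37.1% of all genes. FMK library 2 was the highest for 22 of 37, against 32.7% of all genes. With DMSO, library 2 was the lowest for 21 of 37, against 31.5% of all genes. Leaving out DMSO library 2, 19 of the 37 were called higher with FMK against DMSO, where 7.96% of all genes tested were. The median log2 fold change of the 37 was then 0.48. Without the libraries numbered 3 in every group, 25 of the 37 were called higher with FMK against DMSO, where 9.64% of all genes tested were. In that fit 8 were higher with OPH against DMSO, where 7.07% of all genes were, and 20 were lower with OPH than with FMK, where 5.08% were. In each group library 3 also had the highest sum of skeletal muscle markers, at 870.1 CPM with OPH, 643 CPM with FMK and 1020 CPM with DMSO, and the lowest sum of adipocyte markers, and the part of this in the values was not tested.

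Within isoform families, the share of counts held by each member is given by library. Shares are per family and library, and each count marks a transcript end, so they do not scale with transcript length. Slc16a3 held 42.1, 42.6 and 38.0% with OPH, 70.8, 68.4 and 71.9% with FMK and 49.9, 43.1 and 55.2% with DMSO of the counts of the carriers Slc16a1 and Slc16a3. FMK libraries lay above all others without overlap, and OPH lay below DMSO. Ldhb held 7.70, 7.81 and 6.58% with OPH, 3.71, 3.76 and 3.52% with FMK and 7.47, 8.80 and 6.73% with DMSO of the counts of Ldha and Ldhb. FMK libraries lay below all others, and OPH overlapped with DMSO.

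Pfkp held 33.2, 31.5 and 27.7% with OPH, 36.2, 36.0 and 35.8% with FMK and 23.4, 23.4 and 26.1% with DMSO of phosphofructokinase counts. Pfkm held 14.3, 14.5 and 19.2% with OPH, 10.8, 11.6 and 12.2% with FMK and 21.7, 20.9 and 21.4% with DMSO. For these subunits the groups stood in the order FMK, OPH and DMSO without overlap, downward for Pfkp and upward for Pfkm, while Pfkl averaged 53.2 ± 0.759% with OPH, 52.5 ± 0.490% with FMK and 54.3 ± 1.69% with DMSO (SD, n = 3 each). Eno2 held 44.0, 41.5 and 35.2% with OPH, 44.0, 41.5 and 33.8% with FMK and 31.2, 22.8 and 21.5% with DMSO of enolase counts, both inhibitors being above DMSO, and Hk2 held 41.0, 39.3 and 37.2% with OPH, 40.9, 41.5 and 43.9% with FMK and 32.4, 34.8 and 38.1% with DMSO of hexokinase counts, where OPH overlapped with both other groups. The enolase, lactate dehydrogenase and aldolase shares carry the uncertainty of counts given above for Eno1, Ldha, Ldhb and Aldoa. Slc2a3 averaged 9.62 ± 1.98% with OPH, 10.5 ± 0.625% with FMK and 14.1 ± 2.28% with DMSO of the counts of Slc2a1 and Slc2a3. Aldoc averaged 1.23 ± 0.443% with OPH, 0.953 ± 0.203% with FMK and 2.39 ± 0.458% with DMSO of aldolase counts, and Pfkfb4 averaged 6.10 ± 0.432% with OPH, 6.86 ± 3.28% with FMK and 10.3 ± 0.967% with DMSO of the counts of Pfkfb3 and Pfkfb4. These shares are described without a test, since an exact permutation test of 3 against 3 libraries cannot give a two-sided p under 0.1.

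**Figure D4:**
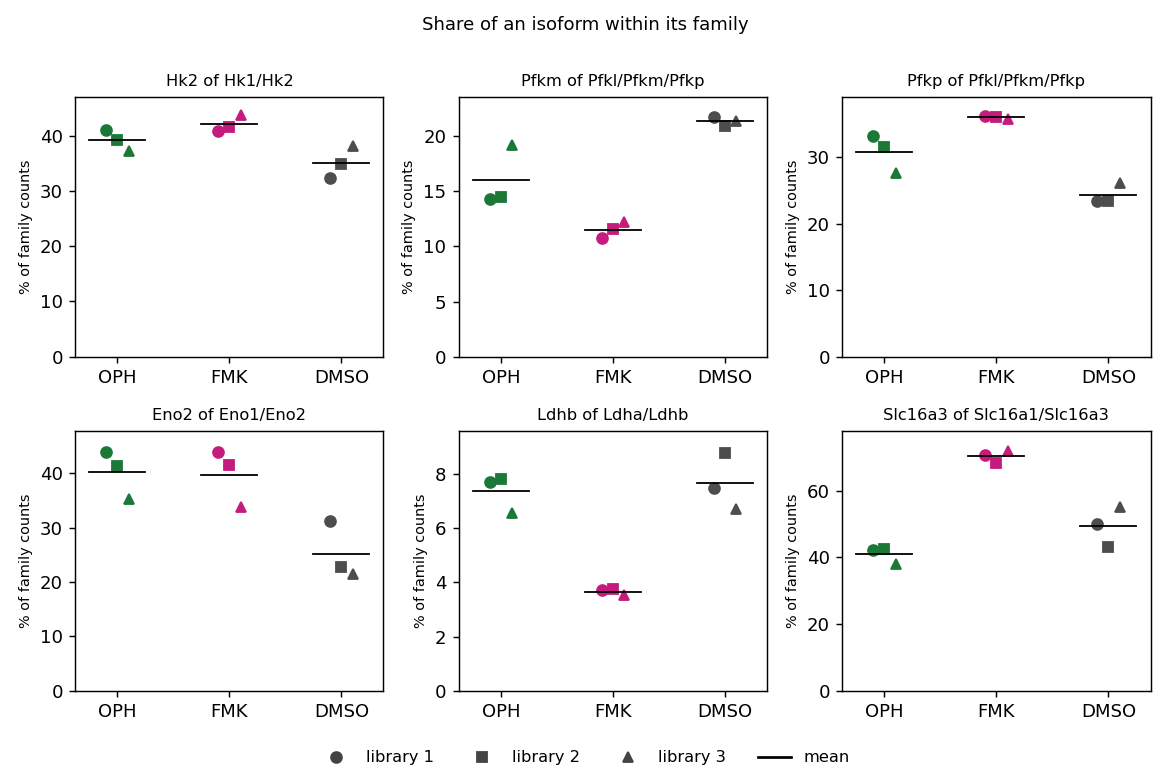
Percent of the counts of an isoform family held by 1 member in each library, with OPH, FMK and DMSO from left to right, libraries as points and the group mean as a line. The share of Slc16a3 was 68.4 to 71.9% with FMK, that of Ldhb 3.52 to 3.76%.

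Outside the 37, other isoforms and the genes of pyruvate entry were called lower with FMK more often than higher. Of 30 tested, 2 were higher and 10 lower with FMK than with DMSO, where 10.4% and 10.1% of all genes tested were, with a median log2 fold change of -0.20. Slc2a4, the insulin-responsive glucose carrier of fat and muscle, had 2.14 ± 0.782 CPM with FMK and 15.8 ± 4.61 CPM with DMSO, a log2 fold change of -2.88 ± 0.35 (adjusted p = 9.57e-06). Hk3, a hexokinase of white blood cells, had 0.367 ± 0.389 CPM with FMK and 9.01 ± 1.81 CPM with DMSO (log2 fold change -4.48 ± 0.61, adjusted p = 3.01e-05). Slc16a7, a monocarboxylate carrier with a high affinity for pyruvate, had 3.38 ± 2.08 CPM with FMK and 13.0 ± 1.29 CPM with DMSO (log2 fold change -1.95 ± 0.38, adjusted p = 0.00129). Gpd1, a glycerol phosphate dehydrogenase abundant in fat, had the largest change of the list, -5.42 ± 1.36 (adjusted p = 0.0364), with 2.45 ± 0.887 CPM with FMK and 106 ± 79.7 CPM with DMSO. The macrophage and adipocyte markers given above moved with these genes, and their part in the result was not tested. With OPH against DMSO, 1 was higher and 4 lower, where 8.61% and 8.11% of all genes tested were, with a median of -0.07. Hk3 had 1.14 ± 0.285 CPM with OPH and 9.01 ± 1.81 CPM with DMSO (log2 fold change -2.97 ± 0.51, adjusted p = 0.000572). Pdp1, a pyruvate dehydrogenase phosphatase, had -0.60 ± 0.16 (adjusted p = 0.0163) and Pdk3, a pyruvate dehydrogenase kinase, -0.37 ± 0.11 (adjusted p = 0.0292). Between the inhibitors, 5 were higher and 2 lower with OPH than with FMK, where 4.20% and 4.66% of all genes tested were, with a median of 0.36.

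The branches off glycolysis are given beside 10.4% of all genes tested called higher and 10.1% lower with FMK, and 8.61% and 8.11% with OPH, each against DMSO. Of 10 pentose phosphate genes, Taldo1, encoding transaldolase, was lower with FMK (-0.46 ± 0.13, adjusted p = 0.0169) and none was higher. With OPH, Tkt, encoding transketolase, was higher (0.44 ± 0.12, adjusted p = 0.0203) and Pgls, a phosphogluconolactonase, lower (-0.32 ± 0.08, adjusted p = 0.0138). The medians were -0.11 with FMK and 0.07 with OPH. Of 18 genes of glycogen and hexosamine, 3 were higher and 1 lower with FMK, with a median of 0.08. Pygb, the brain-type glycogen phosphorylase, fell with FMK (-0.42 ± 0.09, adjusted p = 0.00304), while Gfpt2, which feeds sugar into hexosamine synthesis, rose (0.90 ± 0.22, adjusted p = 0.00729). Ugdh, which makes the glucuronate donor of cartilage glycosaminoglycans, rose with FMK (0.40 ± 0.12, adjusted p = 0.0208). With OPH 1 was higher and 2 lower, with a median of 0.02: Pgm3 of hexosamine synthesis fell (-0.76 ± 0.17, adjusted p = 0.00446), as did Pygb (-0.41 ± 0.09, adjusted p = 0.00461), and Gyg, the glycogen primer glycogenin, rose (0.36 ± 0.12, adjusted p = 0.0456).

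Of 40 hypoxia targets outside the 37 that were tested, 15 were higher with FMK than with DMSO, where 10.4% of all genes tested were, and 3 were lower, where 10.1% were, with a median log2 fold change of 0.31. Ero1l, an oxidase for disulfide bonds in the endoplasmic reticulum, had 71.5 ± 3.85 CPM with FMK and 28.0 ± 2.68 CPM with DMSO, a log2 fold change of 1.35 ± 0.12 (adjusted p = 1.99e-07). Bhlhe40, a transcriptional repressor, had 75.8 ± 12.1 CPM with FMK and 25.5 ± 3.40 CPM with DMSO (1.57 ± 0.14, adjusted p = 2.01e-07). Mif, a cytokine, had 409 ± 7.93 CPM with FMK and 239 ± 24.4 CPM with DMSO (0.77 ± 0.09, adjusted p = 2.92e-06). The largest change was in Cxcr4, a chemokine receptor, which fell (-3.50 ± 0.74, adjusted p = 0.00221), with 0.280 ± 0.105 CPM with FMK and 3.36 ± 0.912 CPM with DMSO. The macrophage markers given above moved with Cxcr4, and their part in its change was not tested. With OPH against DMSO, 7 were higher and 3 lower, where 8.61% and 8.11% of all genes tested were, with a median of 0.05. Hmox1, a heme oxygenase also induced by oxidative stress, had 127 ± 12.4 CPM with OPH and 58.5 ± 3.08 CPM with DMSO (1.12 ± 0.10, adjusted p = 5.92e-07), and Bhlhe40 rose by 1.19 ± 0.14 (adjusted p = 1.09e-05). P4hb, the shared subunit of the collagen prolyl hydroxylase, fell with OPH (-0.50 ± 0.08, adjusted p = 0.000246). Between the inhibitors, 3 were higher and 12 lower with OPH than with FMK, where 4.20% and 4.66% of all genes tested were, with a median of -0.23.

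The last lists are read against the same shares of all genes tested. Of 16 other oxygen-sensing genes, 1 was higher and 2 lower with FMK, with a median of 0.01. Epas1, the relative of Hif1a best known from endothelium, had 3.32 ± 1.32 CPM with FMK and 13.6 ± 5.58 CPM with DMSO (-2.03 ± 0.37, adjusted p = 0.00088). Its level with OPH was 12.25 ± 2.86 CPM. Of 3 endothelial markers tested, 1 was higher and 0 lower with FMK than with DMSO. The adipocyte and macrophage markers given above fell with FMK, and the part of these cell types in the change of Epas1 was not tested. Cited2, which competes for the coactivators of Hif1a, rose (0.47 ± 0.10, adjusted p = 0.00235), and Vhl, which marks the factor for breakdown, fell (-0.36 ± 0.12, adjusted p = 0.0497). With OPH the coactivator gene Crebbp was the 1 gene called, and it rose (0.39 ± 0.09, adjusted p = 0.00417), with a median of 0.05 for the list. Of 16 Myc and mTOR nutrient-sensing genes, 4 were higher and 1 lower with FMK (median 0.20), and 4 were higher and none lower with OPH (median 0.31). With FMK, Arrdc4 and Txnip, glucose-responsive relatives that restrain glucose uptake, rose by 0.97 ± 0.17 (adjusted p = 0.000466) and 0.56 ± 0.10 (adjusted p = 0.00047). Mlxipl, a glucose-sensing factor of liver and fat, had 1 count in all with FMK and 65 with DMSO, so that scaled counts stood at 0.0167 of the DMSO level with a 95% counting interval of 0.000416 to 0.0962. That interval was taken from counts pooled by group and leaves out the spread between libraries. The adipocyte markers given above moved with Mlxipl, and their part in its change was not tested. With OPH, Sesn2, a stress-induced brake on mTOR, rose by 0.74 ± 0.12 (adjusted p = 0.000226), Myc, a growth-promoting factor, by 1.30 ± 0.26 (adjusted p = 0.00273) and Txnip by 0.32 ± 0.10 (adjusted p = 0.0312). Between the inhibitors, 2 of the other oxygen-sensing genes and 2 of the Myc and mTOR genes were higher with OPH than with FMK and none was lower, while 1 of the glycogen and hexosamine genes was higher and 3 lower, and 1 pentose phosphate gene was lower.

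The genes were also compared by place on the chromosome and by promoter letters. On chromosome 6 lie 6 of the 37, and Eno2, Tpi1 and Gapdh stand there within one stretch from chr6:124760053 to chr6:125166467, all on the minus strand. For these neighbours the log2 fold change with FMK was 1.62 ± 0.24 for Eno2, 0.50 ± 0.10 for Tpi1 and 0.51 ± 0.11 for Gapdh. By promoter letters, ACGTG or GCGTG was in 18 of the 24 promoters of genes called higher with FMK, in both of the 2 called lower and in 7 of the 8 not called. With OPH, ACGTG or GCGTG was in all 5 promoters of genes called higher, in the 1 called lower and in 21 of the 28 not called. The share was 79.4% over the 34 matched promoters and 43.8% over all promoters. Among the genes called higher with FMK, the promoters of Aldoa, Eno2, Hk1, Pkm, Tpi1 and Vegfa held neither.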

How the data were processed

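Values were gene counts from QuantSeq 3′ libraries (FWD kit, per the labels' protocols), in which 1 read marks the end of 1 transcript. The authors deposited counts that are whole numbers with a different total in each library, and they were read as raw counts from those values. The authors' own fold changes in the same table were not used. FastQC, MultiQC, cutadapt, STAR, DESeq2 and mm10 are named in the submitters' processing notes, and the counting program, annotation, strand setting and treatment of reads with several matches were not given in the sources used here. All 9 columns matched a sample title. The letter a was added to the title in every column but DMSO3 and OPH3, and any link of the letter with the values was not tested. Spike-in rows, 99 holding 1 count in all, were left out.

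Counts were filtered with filterByExpr, scaled by TMM and tested with edgeR 4.0.16 (robust quasi-likelihood fit, R 4.3.3) over the 9 libraries, with 1 coefficient per group and Benjamini-Hochberg adjustment over 13255 genes. SE is the log2 fold change over the root of F, and intervals are 95%. Depth was 5659789 to 6867350 counts per library, and the biological coefficient of variation was 0.156. Windows of 50 bases at annotated transcript ends were searched in all other transcripts (GENCODE M21). The pipeline was tested on simulated data with the same dispersion for all genes and no pairing of libraries. That test checks the code and does not bear on the p-values given here.

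The members and lists were chosen with earlier results of these data known. Values in every library are given for members called in any comparison with an absolute log2 fold change of at least 0.5, for isoform families and for Hif1a. From each pathway list, the 3 called genes of smallest p and the 1 of largest change are named for each inhibitor against DMSO. Libraries with the same number deviated together (r = 0.1023 to 0.3443 for every such pair, -0.2753 to 0.01475 for the others), so the numbers pair the samples. This pairing comes from the data, not the labels. The main fit left it out, so p-values, SE and intervals given without mention of the block ignore it. With the block no member call was lost. It gained 5 with FMK against DMSO, 4 with OPH against DMSO and 8 with OPH against FMK. The block was an alternative. The others were DESeq2 1.42.0 size factors and test, limma-voom 3.58.1, library size alone, other low-count filters, only the 2 groups compared, libraries 1 and 2 alone and leaving out each library.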

Additional observations from a re-analysis of the deposited data

How the results depend on the processing

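With the replicate number as a block, 29 members were called higher and 3 lower with FMK against DMSO, 8 higher and 2 lower with OPH against DMSO, and 1 higher and 26 lower with OPH against FMK, while over all genes it called 1779 higher and 1773 lower, 1536 higher and 1503 lower, and 1031 higher and 1108 lower in the same comparisons. No call of a member was lost, and beyond the gains given above the block changed no other call. Members called higher with OPH against DMSO were 8 without the filter and 8 with libraries 1 and 2 alone, and members called lower there were 2 without the filter and 0 in limma-voom. With libraries 1 and 2 alone, 1 member was lower with FMK against DMSO. Leaving out 1 library at a time gave 19 to 26 members higher and 1 to 3 lower with FMK against DMSO, 4 to 7 higher and 0 to 1 lower with OPH against DMSO, and 0 to 1 higher and 14 to 19 lower with OPH against FMK. Over all genes this gave 1041 to 1326 higher and 938 to 1342 lower with FMK, 791 to 1238 higher and 696 to 1178 lower with OPH, and 265 to 668 higher and 306 to 718 lower with OPH against FMK. Library size alone gave 1103 higher and 385 lower with OPH against FMK.

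Some changes near 0 turned sign. With libraries 1 and 2 alone, log2 fold changes with FMK were 0.0093 for Pdk1 and -0.030 for Ankrd37, and with OPH against DMSO 0.079 for Tpi1, 0.11 for Gapdh, 0.097 for Pkm, 0.00051 for Ldha and 0.16 for Slc16a3. With OPH against FMK, Pfkfb4 was 0.098 with library size alone, 0.071 in limma-voom and 0.033 with the block, and Bnip3l was 0.095 with library size alone. Ranges on leaving out 1 library were -0.24 to 0.054 for Pdk1 and -0.052 to 0.46 for Ankrd37 with FMK. With OPH against DMSO they were -0.086 to 0.42 for Adm, -0.16 to 0.053 for Gapdh, -0.0024 to 0.075 for Hk1, -0.10 to 0.014 for P4ha1, -0.062 to 0.20 for Pgk1, -0.12 to 0.061 for Pkm, -0.36 to 0.064 for Slc16a3 and -0.13 to 0.056 for Tpi1. With OPH against FMK they were -0.16 to 0.44 for Aldoc, -0.097 to 0.039 for Bnip3l, -0.017 to 0.29 for Pfkfb3, -0.23 to 0.44 for Pfkfb4 and -0.014 to 0.14 for Slc16a1. The cause of these shifts was not tested. Low counts limit the precision of Ankrd37 and Pfkfb4.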
